A study of Mus musculus with 7 samples.

Results

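Endothelial nuclei of the cortical vessels were described in a single-nucleus RNA-Seq (snRNA-Seq) sample from the primary visual cortex (V1) of male C57BL/6J mice aged 6 to 10 weeks. The animals had been injected with the SST PESCA AAV9 library, a pool of adeno-associated viruses in which 287 candidate gene regulatory elements (GREs), each tied to 3 transcribed barcodes, drive a reporter. All nuclei came from injected cortex, so no uninjected nuclei were analysed here. The sample was sequenced as 10 inDrops libraries in 2 sets of 5, named 1-1 to 1-5 and 2-1 to 2-5. Per the study's methods 5 libraries were made from each animal. The labels tie no library to an animal, and a difference between the sets cannot be told apart from one between animals or between runs. A nucleus was counted when it held over 200 UMIs (unique molecular identifiers, counts of captured transcript molecules) outside the viral barcodes. The gene column Vector counted towards this cut, and without it 31896 nuclei would be kept, all 438 endothelial ones among them. Endothelial nuclei were chosen by measured values: a nucleus was taken when its UMIs of Cldn5, Flt1, Pecam1 and Slco1a4 summed to at least 3 and it held none of Gad1, Gad2, Cx3cr1 or Csf1r, the markers of inhibitory neurons and microglia. The rule found 438 nuclei among 32335 kept nuclei and 47348 barcodes. They are called endothelial-marker nuclei below and were set against the 31897 other kept nuclei.

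Brain endothelial cells line the blood vessels and form the blood-brain barrier. They seal the gaps between cells with tight junctions, carry glucose, amino acids, lipids and drugs across through dedicated transporters, and take up little by vesicles. Signals of the Wnt, VEGF, angiopoietin, TGF-beta and Notch families keep this state. Pericytes, the mural cells of capillaries, sit inside the same basement membrane as the endothelial cells.

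The 4 rule genes chose the nuclei and are given as a description. Flt1, a VEGF receptor, held 3214 UMIs and was seen in 92.7% of the endothelial-marker nuclei. Slco1a4, an organic anion carrier of the barrier, held 2380 UMIs and was seen in 92%. Cldn5, the main claudin of brain endothelium, held 1539 UMIs and was seen in 85.6%. Pecam1, an adhesion molecule of endothelial junctions, held 859 UMIs and was seen in 72.1%. All 4 genes were seen together in 260 nuclei, and 8 nuclei had only 1 of them. The excitatory class held nuclei with 1 or more UMIs of Slc17a7, the vesicular glutamate transporter of cortical excitatory neurons, under 3 UMIs of the rule genes, no Gad1 or Gad2 and no second class. Its shares for the rule genes are therefore held down by its own definition and are no check of the label. A UMI was found in 0.503% for Flt1, 0.359% for Slco1a4 and 0.0359% for Cldn5, at a median depth of 1044 UMIs. Pecam1 was the exception, at 3.66% of excitatory nuclei.

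The marker sum had a median of 13 UMIs (interquartile range 7 to 24, highest 118). Just inside the threshold, 22 nuclei had a sum of exactly 3, with a median depth of 294 UMIs. Their 25 endothelial receptor and adhesion genes (none used by the rule) summed to 191 UMIs per 10000 cellular UMIs, that is, all UMIs outside the viral columns. Just outside, 75 nuclei with a sum of 2 had a summed level of 59.3, and 740 nuclei with a sum of 1 had 7.47. In the 202 nuclei with a sum of 15 or more it was 251. The excluded genes removed 46 of 484 nuclei with enough marker UMIs: 39 held Gad1 or Gad2, 8 held Cx3cr1 or Csf1r and 1 of these held both kinds. These left-out nuclei counted among the others.

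The endothelial-marker nuclei made up 1.35% of kept nuclei (95% exact binomial interval 1.23 to 1.49%). Over the 10 libraries the share was 0.882% at its lowest, 1.55% at the median and 1.82% at its highest, with 32 to 56 nuclei in a library. It was 1.10% in set 1 (interval 0.956 to 1.27%) and 1.66% in set 2 (1.46 to 1.88%). Library 1-1 of set 1, at 1.55%, reached the lowest value of set 2. All intervals in the text cover counting error only, since the nuclei belong to one sample and do not replicate a condition. The 438 nuclei carried 387 distinct barcode labels, of which 49 were used in several libraries, and 0 pairs had identical profiles. Fewer captured nuclei of a type and fewer cells of that type in the tissue cannot be told apart here.

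The endothelial-marker nuclei were deep. Their median was 1259.5 cellular UMIs and 829 genes, against 695 UMIs and 522 genes in the other nuclei. The rule needs 3 marker UMIs and so passes deep nuclei more easily. After each nucleus was thinned to 500 UMIs, which left out 64 of the 438 endothelial-marker nuclei, the median was 406 genes, against 417 in 3000 other nuclei drawn from the 19961 that were deep enough. Mitochondrially encoded transcripts made up 1.69% of their UMIs (1.36 to 2.07% over libraries), against 0.204% in the others. Transcripts of ribosomal protein genes made up 5.10%, against 1.46%. The part of these transcripts in the results below was not tested.

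Because 1 sample holds all nuclei, genes were called by size rather than by a test. A gene was called higher when its level in the endothelial-marker nuclei was at least 2 times that in the others, with at least 10 endothelial UMIs, over genes with at least 100 UMIs. It was called lower at a ratio of at most 0.5, over genes with at least 5 UMIs expected in these nuclei. By this rule 2076 of 12999 genes (16.0%) were higher and 4594 of 11458 (40.1%) were lower. The median ratio over the genes tested for higher levels was 0.67. The counts of list members given below stand against these 2 shares. Of the 2076 higher genes, 1279 were higher in 10 of 10 libraries, and 3197 of the 4594 lower genes were lower in 10 of 10. A ratio of 20 or more was reached by 245 genes and of 100 or more by 33. Of the higher genes, 115 reached the minimum of 100 UMIs only through their endothelial UMIs, 79 of them among the 245. With the minimum set on the other nuclei alone, an alternative added after the data were seen, 1961 of 12855 genes (15.3%) were higher.

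The endothelial receptors and adhesion molecules were all higher. All 25 were tested and all 25 were higher, with a median ratio of 90.3 (0.67 over all tested genes), and each was higher in 10 of 10 libraries. With the minimum in the other nuclei alone, 22 of 22 were higher, with a median ratio of 84.8. Adgrl4, an adhesion G protein-coupled receptor of endothelium, had a level of 14.9 at its lowest, 17.9 at the median and 22.9 UMIs per 10000 at its highest in the endothelial-marker nuclei. In the other nuclei it was 0.0248, 0.0613 and 0.171, so the libraries did not overlap. The ratio was 251 (interval 216 to 292). Ptprb, the endothelial receptor phosphatase VE-PTP, was 18.7, 20.4 and 24.3 per 10000 over libraries, against 0.0532 to 0.245, a ratio of 185 (163 to 209). Tek, the angiopoietin receptor Tie2, ran from 4.16 to 9.25 with a median of 6.75, against 0.011 to 0.1, a ratio of 159 (129 to 198). Kdr, the main VEGF receptor, ran from 7.59 to 14.1, against 0.0319 to 0.148, a ratio of 135 (116 to 158). In each of these genes the lowest endothelial library stood above the highest library of the other nuclei. The smallest ratios of the list belonged to Cd34 (6.92), Tie1 (8.30), S1pr1 (8.38) and Mcam (9.77). Cd34, a sialomucin also found on other cells, was at 2.94 per 10000 in the other nuclei. Von Willebrand factor (Vwf), a clotting protein more abundant in large vessels, was found in 14.8% of the endothelial-marker nuclei.

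**Figure D1:**
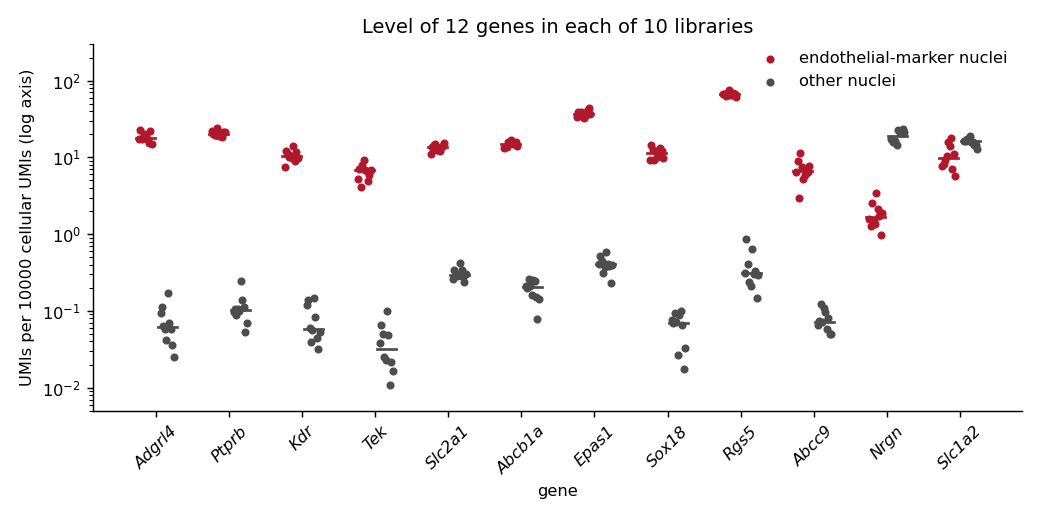
Level of 12 genes in UMIs per 10000 cellular UMIs (log axis) in the endothelial-marker nuclei (red) and the other kept nuclei (grey), 1 point per library and a bar at the median of 10 libraries. The endothelial and mural genes from Adgrl4 to Abcc9 did not overlap between the groups, Nrgn lay lower in the endothelial-marker nuclei without overlap, and Slc1a2 overlapped.

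Regulators of the endothelial program followed the same pattern. Of 24 tested, 24 were higher, with a median ratio of 58.8. With the minimum in the other nuclei alone it was 15 of 15, with a median ratio of 53.7. Epas1, the hypoxia-inducible factor HIF-2alpha, held 37.2 UMIs per 10000 (33.0 to 43.9 over libraries) against 0.406, a ratio of 91.7. Foxq1, a forkhead factor of brain endothelium, was at 4.52 (3.29 to 6.02), a ratio of 193 (147 to 256). The SoxF factors Sox18 and Sox17, which act in vessel development, had ratios of 172 (146 to 204) and 167 (126 to 226), and Sox7 of the same group had 82.3. Among the ETS factors, Ets1 reached 47.9, Erg 63.8 and Fli1 36.9, while Ets2 reached 3.25. Foxq1, Sox17, Sox7, Erg and Fli1 passed the UMI minimum only through their endothelial UMIs. The flow-responsive factors Klf2 and Klf4 had ratios of 57.9 and 53.7. Foxf2 (127) and Foxc1 (14.9), forkhead factors of brain vessels and their pericytes, were also higher. Tal1, with under 100 UMIs in all, was not tested.

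Promoters of 4 genes that differed together are shown because ETS factors are known to bind GGAA cores in endothelial promoters. Of the 4 rule genes and the 20 genes with the largest ratios, 14 had an entry in the RefSeq promoter table (GRCm38.p6, 250 bases before to 50 after the start). Capitals mark the letters CCGGAA or AGGAAG on either strand, so that the opposite strand reads TTCCGG or CTTCCT. The promoters lie at chr3:151437632-151437931 (plus strand) for Adgrl4, chr5:147725962-147726261 (minus) for Flt1, chr5:75978406-75978705 (minus) for Kdr and chr1:169655251-169655550 (plus) for Rgs5.
Adgrl4: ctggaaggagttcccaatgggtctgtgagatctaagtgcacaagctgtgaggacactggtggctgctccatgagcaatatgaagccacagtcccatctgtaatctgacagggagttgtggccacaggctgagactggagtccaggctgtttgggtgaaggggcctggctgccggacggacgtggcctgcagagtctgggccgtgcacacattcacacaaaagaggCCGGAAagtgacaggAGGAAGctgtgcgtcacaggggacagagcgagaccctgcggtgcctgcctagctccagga
Flt1: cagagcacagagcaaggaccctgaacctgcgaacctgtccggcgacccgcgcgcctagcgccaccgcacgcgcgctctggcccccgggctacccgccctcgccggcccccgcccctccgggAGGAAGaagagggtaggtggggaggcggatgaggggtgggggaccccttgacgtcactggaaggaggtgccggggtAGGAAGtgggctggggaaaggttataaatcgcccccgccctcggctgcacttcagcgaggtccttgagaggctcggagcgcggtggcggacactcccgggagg
Kdr: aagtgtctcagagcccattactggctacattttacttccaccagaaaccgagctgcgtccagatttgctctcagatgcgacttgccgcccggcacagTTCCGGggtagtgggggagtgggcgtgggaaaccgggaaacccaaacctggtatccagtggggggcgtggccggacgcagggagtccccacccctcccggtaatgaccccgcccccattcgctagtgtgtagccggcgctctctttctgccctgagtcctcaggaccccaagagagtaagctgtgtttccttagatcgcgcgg
Rgs5: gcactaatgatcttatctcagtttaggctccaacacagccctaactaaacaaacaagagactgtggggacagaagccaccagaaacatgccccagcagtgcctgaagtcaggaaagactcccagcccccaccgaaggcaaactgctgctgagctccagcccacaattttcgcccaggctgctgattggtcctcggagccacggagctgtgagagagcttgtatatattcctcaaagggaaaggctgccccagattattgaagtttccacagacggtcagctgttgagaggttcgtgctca
Adgrl4 held 1 copy of each motif, Flt1 2 copies of AGGAAG and Kdr 1 copy of CCGGAA. Neither was found in the Rgs5 window, nor in those of the endothelial genes Cldn5, Tek and Slc19a3 or of the pericyte gene Kcnj8. The bare core GGAA does occur in the Rgs5 window. The 4 windows shown are therefore no contrast between endothelial and pericyte genes. At least one of the motifs stood in 42.9% of 224 promoters of genes with a ratio of 20 or more, in 48.9% of those past the fold of 2, in 49.6% of those of all tested genes and in 45.2% of all 32851 promoters. AGGAAG alone stood in 39.3% of the first group and 35.4% of all promoters, and CCGGAA alone in 6.70% and 14.9%. Among promoters of all tested genes the shares were 32.5% and 25.3%. These matches are letters in a window and no evidence of binding.

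Transporters of the barrier were mostly higher. Of 30 tested, 24 were higher, with a median ratio of 16.1. With the minimum in the other nuclei alone it was 19 of 25, with a median ratio of 11.5. Abcb1a, the efflux pump P-glycoprotein, held 14.9 UMIs per 10000 (13.3 to 16.7 over libraries), a ratio of 77.5 (69.8 to 86.2). Slc2a1, the glucose transporter GLUT1, held 13.3 (11.2 to 15.5) against 0.238 to 0.427 in the other nuclei, a ratio of 43.8 (39.9 to 48.1). The thyroid hormone carrier Slco1c1 had a ratio of 56.7. Mfsd2a, a lipid carrier that restrains vesicle uptake, reached 38.4, and Slc19a3, a thiamine carrier that passed the UMI minimum only through its endothelial UMIs, reached 148 (98.8 to 227). Slc40a1, the iron exporter ferroportin, had a ratio of 62.9. The iron uptake receptor Tfrc had 1.26, being higher in 6 of 10 libraries. The receptors Lrp8 (1.20), Insr (1.79) and Lepr (1.76) and the zinc carrier Slc39a10 (1.80) also stayed under the fold. Of 27 transporters tested for lower levels, 1 was lower (40.1% of all genes).

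Of 18 junction genes tested for higher levels, 13 were higher (16.0% of all tested genes were), and 4 of 17 tested for lower levels were lower (40.1% of all). Ocln, the tight junction protein occludin, had a ratio of 67.2 (55.0 to 82.5). The junction receptors F11r and Lsr both had 45.0, and Tjp1, the scaffold ZO-1, had 9.0. The catenins Ctnna1 (13.7), Ctnnb1 (8.17) and Ctnnd1 (4.17), proteins of cadherin junctions, were higher. Cldn12 (0.45), Jam3 (0.41), Cgn (0.26) and Magi1 (0.17) were lower.

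In the Wnt pathway most receptors and targets were higher and the ligands were not. Of 16 genes tested for higher levels 11 were higher (16.0% of all genes), and of 13 tested for lower levels 0 were lower (40.1% of all). With the minimum in the other nuclei alone, 10 of 15 were higher. The receptor complex of brain vessels, Adgra2 (GPR124) with Reck, had ratios of 27.7 and 10.4. The Frizzled receptor Fzd4, which binds norrin, had 12.3 and its partner Tspan12 had 9.11. Fzd6 was at 4.57 UMIs per 10000 (3.70 to 7.13 over libraries), a ratio of 74.7. Lef1, a transcription factor of the pathway, had 62.2 and the target Axin2 4.79. The ligands Wnt7a, Wnt7b and Ndp (norrin) had 4, 6 and 4 UMIs in these nuclei, with ratios of 0.65, 0.65 and 0.97, each higher in 3 of 10 libraries.

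In the VEGF, angiopoietin and Notch pathways most receptors were higher, and the main VEGF ligand was lower. Of 21 tested genes 13 were higher (8 of 16 with the minimum in the other nuclei alone) and 1 of 10 tested for it was lower. Vegfa, the main VEGF ligand, was lower at a ratio of 0.21 (0.13 to 0.34), with 18 UMIs against 3194, and was lower in 10 of 10 libraries. Flt4, the receptor VEGFR3, had a ratio of 46.0. The Notch genes Dll4 (61.7), Notch4 (20.8), Notch1 (19.8), Jag1 (23.8) and Heyl (55.9) were higher. Of these and Flt4, all but Notch4 and Notch1 passed the UMI minimum only through their endothelial UMIs. The angiopoietin Angpt2, made by endothelium, had a ratio of 5.85 with 17 UMIs, and Angpt1, a pericyte product, had 1 UMI. Sema3c, a secreted semaphorin, was at 11.4 UMIs per 10000, a ratio of 36.0.

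In the TGF-beta and BMP pathway 11 of 17 genes tested for higher levels were higher (16.0% of all genes) and 1 of 16 tested for lower levels was lower (40.1% of all). With the minimum in the other nuclei alone, 10 of 16 were higher. The receptor Acvrl1 (ALK1) had a ratio of 53.6 and its co-receptor Eng one of 143 (123 to 166). The target genes Id1 and Id3 held 14.7 and 12.4 UMIs per 10000, with ratios of 67.0 and 27.3. Bmpr2, the type 2 BMP receptor, had 2.99, while Tgfbr1 (0.51) and Bmpr1a (0.90) were under the fold. Bmper, a BMP-binding protein, had 0 UMIs against 539 in the other nuclei, and was at least 4.75-fold lower when 3 UMIs over the group are taken as the floor.

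Genes of the vessel wall were higher in 15 of 18 tested, and in 13 of 16 with the minimum in the other nuclei alone. Sparc, a matrix glycoprotein, held 33.9 UMIs per 10000 (29.9 to 44.2), a ratio of 24.6. Fibronectin (Fn1) held 30.1 (21.3 to 34.5), a ratio of 16.7. The basement membrane collagens Col4a1 and Col4a2 had ratios of 16.4 and 17.4 and the integrin Itga6 25.7. Itgav was lower at 0.35. Of 11 caveolar and endocytic genes 8 were higher, with Cav1 (caveolin 1) at 55.4 and Cavin1 at 36.2. Plvap, the fenestral protein absent from mature barrier vessels, had 4 UMIs and a ratio of 0.64. The clathrin heavy chain Cltc was level at 1.06, and Pacsin3, an adaptor of caveolae and endocytosis, was the 1 of 11 called lower, at 0.39.

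**Figure D2:**
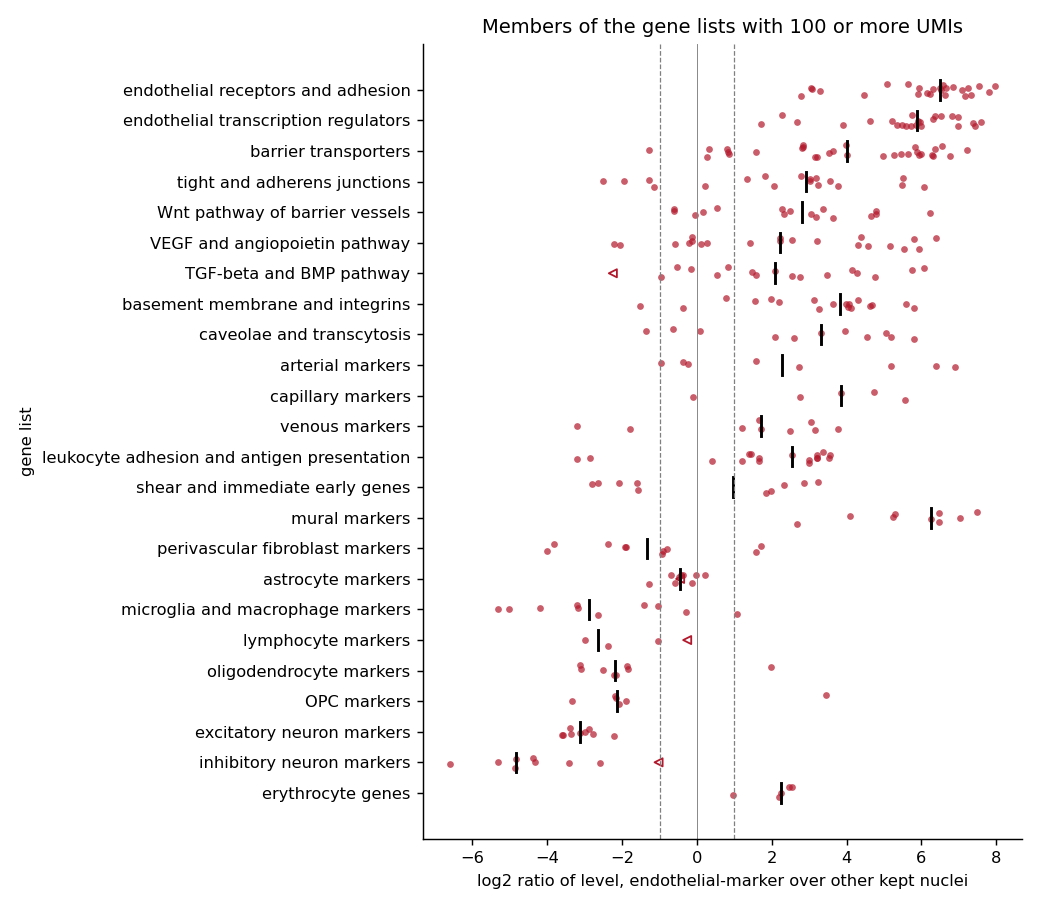
Log2 ratio of level between the endothelial-marker and the other kept nuclei for each member of 24 gene lists with at least 100 UMIs, 1 point per gene, with the list's median as a bar. Open triangles place genes with 0 endothelial UMIs at the bound that 3 UMIs would give, and dashed lines mark ratios of 0.5 and 2. The receptor, regulator and mural lists lie to the right of the upper line in all tested members, and the excitatory and inhibitory neuron lists lie to the left of 0.

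Markers of vessel segments were all present in part. A UMI of at least 1 of 6 capillary genes was found in 416 nuclei (95%), of at least 1 of 12 arterial genes in 277 (63.2%) and of at least 1 of 11 venous genes in 249 (56.8%), and 178 nuclei held both arterial and venous UMIs. In the other nuclei, which were shallower, the shares were 35.6%, 8.66% and 31.2%. The lists are not particular to endothelium: the arterial list summed to 27.9 UMIs per 10000 in the astrocyte class against 13.9 here, and the venous list to 9.17 against 9.63. Cxcl12, a chemokine of capillary and arterial endothelium, held 35.6 UMIs per 10000 (30.7 to 42.4), a ratio of 46.9. Edn1 (endothelin 1) had a ratio of 120 (98.1 to 148) and the arterial connexin Gja4, which passed the UMI minimum only through its endothelial UMIs, 36.6. The arterial genes Bmx and Gkn3 had 13 and 9 UMIs in these nuclei. The venous factor Nr2f2 (COUP-TFII) had a ratio of 8.31. Ackr1, a venular chemokine receptor, had 11 UMIs against 3874 and was lower at 0.11. At these counts the nuclei could not be divided into segments.

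Among genes of antigen presentation and leukocyte adhesion 14 of 17 tested for higher levels were higher (16.0% of all genes) and 2 of 17 tested for lower levels were lower (40.1% of all). B2m, the light chain of MHC class I, held 21 UMIs per 10000 and had a ratio of 9.30, and the heavy chains H2-D1 and H2-K1 both had 8.03. The interferon-induced genes Gbp2 (11.8), Ifit3 (11.6) and Bst2 (10.3) were higher. The adhesion molecules for leukocytes were scarce: Vcam1 was seen in 6.39% of the nuclei, Icam1 in 4.79%, Selp in 1 nucleus and Sele in 0. H2-Q4 went the other way, at 2.66 to 10.5 UMIs per 10000 over libraries against 34.9 to 54.2, a ratio of 0.14 (0.13 to 0.15). As a member of the MHC class I family it has close relatives, so its count is uncertain, and whether mapping between copies touches its ratio was not tested.

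Genes of the early response to activity divided by gene as well. The neuronal activity genes Egr1, Fos, Junb and Nr4a1 had ratios of 0.14, 0.16, 0.33 and 0.24. Jun (5.04), Ier2 (3.96), Zfp36 (7.23) and Atf3 (3.59) were higher, and so was Thbd (thrombomodulin), which holds back clotting, at 9.43.

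Mural transcripts were also high in these nuclei. Rgs5, a regulator of G protein signalling used as a pericyte marker, held 61.7 UMIs per 10000 at its lowest, 67.4 at the median and 75.4 at its highest over libraries. In the other nuclei it was 0.145 to 0.866, and the ratio was 180 (168 to 193). It was seen in 88.4% of the endothelial-marker nuclei. The channel subunits Kcnj8 and Abcc9 of pericytes had ratios of 130 (101 to 170) and 89.2 (75.8 to 105), and Kcnj8 passed the UMI minimum only through its endothelial UMIs. Vtn (vitronectin), Atp13a5 and Pdgfrb, the receptor that recruits pericytes, had 87.8, 76.8 and 39.4. Of 9 mural genes tested all 9 were higher, and of 8 with the minimum in the other nuclei alone all 8 were. The contractile genes of smooth muscle were near 0, with 3 UMIs of Acta2, 2 of Tagln, 0 of Cnn1 and 11 of Myh11. The label therefore holds for endothelial transcripts, but the nuclei are not set apart from pericytes by this rule.

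At least 3 UMIs of 7 mural markers (Pdgfrb, Rgs5, Vtn, Kcnj8, Abcc9, Atp13a5, Notch3) were found in 353 of the 438 nuclei (80.6%), 1 or 2 in 40 and none in 45. The nuclei without a mural UMI were shallow, with a median of 462 UMIs against 1509 in those with 3 or more. The receptor and adhesion list, which the rule did not use, summed to 155 UMIs per 10000 in nuclei with no mural UMI, 282 with 1 or 2 and 245 with 3 or more. The transporters summed to 140, 188 and 174 in the same order. Excitatory neuron transcripts were highest in the nuclei without mural UMIs, at 16.6 per 10000 against 2.72. When the 85 nuclei with under 3 mural UMIs were set alone against the others, an alternative added after the data were seen, the receptor list had a level ratio of 34.7 (38.6 for all 438).

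A second division left out Rgs5 and counted how many of Vtn, Kcnj8, Abcc9, Atp13a5, Pdgfrb and Higd1b were seen. None was seen in 192 nuclei and 3 or more in 153. Among nuclei of at least 500 UMIs, the 143 with none had a median depth of 1064 and the 152 with 3 or more had 2368. Rgs5 was at 52.1 UMIs per 10000 in the former and 74.7 in the latter. The receptor and adhesion list was at 258 and 237, the transporter list at 190 and 161, Slc2a1 at 15.8 and 11.9 and Col4a1 at 9.26 and 13.3. Rgs5 was thus high in nuclei in which no other of these pericyte genes was seen. Whether a barcode held 1 or several nuclei was not tested, and no doublet caller was run.

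**Figure D3:**
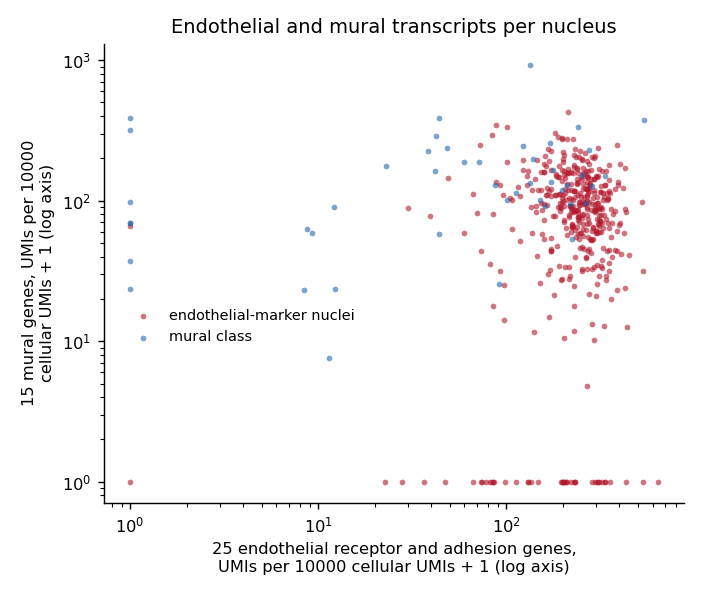
Summed level of 25 endothelial receptor and adhesion genes (x axis) against that of 15 mural genes (y axis) in each nucleus, both in UMIs per 10000 cellular UMIs plus 1 on log axes. Red points are the 438 endothelial-marker nuclei and blue points the 46 nuclei of the mural class. Most red points are high on both axes, and a row at the bottom has no mural UMI.

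Nuclei with mural markers and few endothelial ones were rare. Of 416 kept nuclei free of the excluded genes with 3 or more mural UMIs, 353 (84.9%) met the endothelial rule. A mural class was taken with under 3 endothelial marker UMIs, no Gad1 or Gad2 and no second class, and it had 46 nuclei with a median depth of 409 UMIs. Side by side, Adgrl4 was at 18.3 UMIs per 10000 in the endothelial-marker nuclei and 3.11 in the mural class, Tek at 6.36 and 0.623, and Slc2a1 at 13.3 and 1.87. Rgs5 was at 67.1 and 34.9, Vtn at 6.31 and 11.5 and Pdgfrb at 4.17 and 8.72. The receptor and adhesion list summed to 243 and 70.3 (61.5 to 80.1), so the mural class also carried endothelial transcripts. Its perivascular fibroblast list, at 135, was above its own mural list, at 87.5, so the class is named by its rule alone. The deepest of its nuclei held 23.7% of its UMIs. Without that nucleus, an alternative added after the data were seen, the lists were at 47.4 and 113. The receptor and adhesion list was then at 89.0. The single-gene levels of the class given above include that nucleus. The fibroblast list was at 92.9 in the astrocyte class and at 6.96 in the endothelial-marker nuclei, in which Col1a1 had 4 UMIs. Against the other kept nuclei, 2 of 10 fibroblast genes were higher in the endothelial-marker nuclei and 4 of 9 tested for lower levels were lower.

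In the astrocyte class (1417 nuclei, median depth 412) and the microglia class (258 nuclei, 373) the receptor and adhesion list was at 22.7 and 11.4, and in the excitatory class (5570 nuclei) at 4.81. Adgrl4 was at 0.0207 in astrocytes. The mural list was at 3.70 in astrocytes and 2.20 in microglia. The basement membrane list was at 152 in the endothelial-marker nuclei, 160 in the mural class and 117 in the astrocyte class. Fn1 held 19.1 UMIs per 10000 in the astrocyte class. That class carried the perivascular fibroblast list at 92.9, beside 262 for the astrocyte list, so it too is named by its rule alone. Which of its nuclei held the Fn1 and basement membrane transcripts was not tested.

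**Figure D4:**
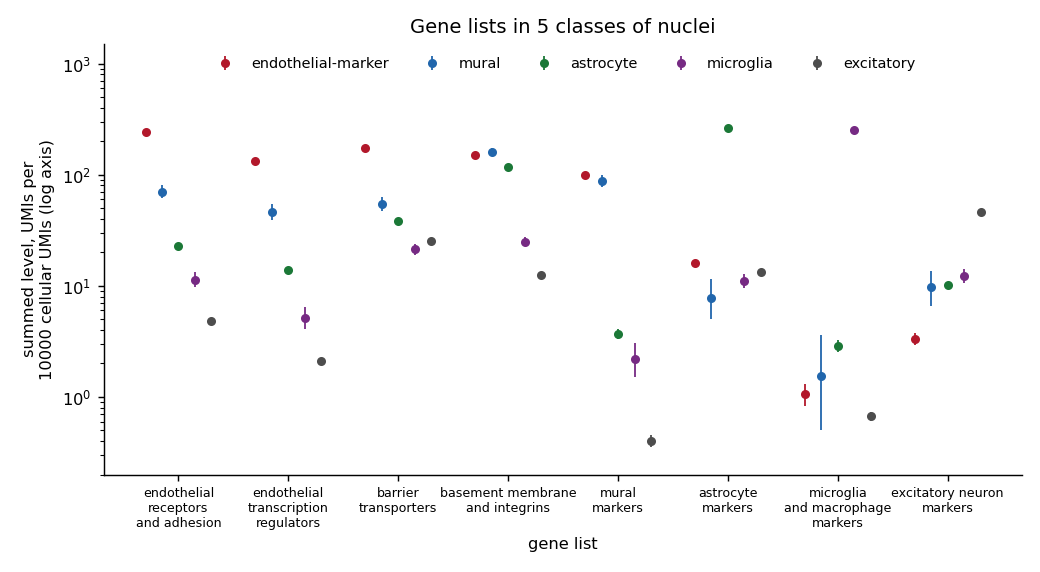
Summed level of 8 gene lists in UMIs per 10000 cellular UMIs (log axis) in the endothelial-marker nuclei and 4 other classes, with exact 95% Poisson intervals that cover counting error only. The receptor, regulator and transporter lists are highest in the endothelial-marker nuclei, the mural list is alike in the first 2 classes, and astrocyte, microglia and excitatory markers peak in the classes they define.

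Markers of most other cell types of the cortex were low, to be read beside the 40.1% of all tested genes that were lower. Of 9 excitatory neuron genes, 9 were lower, and the list summed to 2.00 to 5.75 UMIs per 10000 over libraries against 25.9 to 37.1. Slc17a7 was seen in 20 nuclei (4.57%). The 9 inhibitory neuron genes were also lower, which the exclusion of Gad1 and Gad2 favours. Sst had 13 UMIs against 14191 and Npy 2 against 7279, a ratio of 0.010. Microglia and macrophage markers, which the exclusion of Cx3cr1 and Csf1r favours, were lower in 8 of 10 tested and higher in 1 of 10. Their summed level ratio was 0.34, and it turned to 1.11 in the 40 nuclei free of 8 further marker genes (Slc17a7, Aqp4, Gja1, Pdgfrb, Rgs5, Vtn, Mog and Mobp). Library 1-3 stood apart at 3.17 UMIs per 10000, against 1.16 in the next library. Oligodendrocyte markers were lower in 6 of 7. Mal, a lipid raft protein listed with oligodendrocytes, was higher at 3.91, and Cspg4 (NG2), a marker shared by oligodendrocyte precursors and pericytes, at 11. Astrocyte markers were between, with 0 of 10 higher and 0 of 8 lower and a median ratio of 0.73. Gja1 was seen in 10.5% of the nuclei and Aqp4 in 5.48%. The astrocyte list summed to 16.0 UMIs per 10000 in these nuclei, 22.9 in the others and 30.7 in the barcodes of at most 200 UMIs, and the excitatory list to 3.33, 31.6 and 37.4. The lymphocyte list held 10 UMIs in all, and 4 of its 8 genes had none.

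Erythrocyte genes were uneven. The 5 genes, haemoglobin chains and Alas2, summed to 24.0 UMIs per 10000 against 4.92, but ranged from 0.295 in library 1-4 to 91.9 in library 1-2 and were higher in 6 of 10 libraries. Of 1729 such UMIs, 95.4% lay in 12 nuclei, and 1 nucleus held 393. Without these 12, and without other nuclei of 10 or more, the levels were 1.15 and 1.79.

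Of the 20 genes with the largest ratios, 8 passed the UMI minimum only through their endothelial UMIs. Genes of the 20 that are in no list included AU021092 (176), Gm694 (174), Mmrn2 (152), a matrix protein of endothelium, Tmem204 (141) and Tinagl1 (125), all higher in 10 of 10 libraries. For the smallest ratios, genes with 0 UMIs were placed at the bound that 3 UMIs would give, so they could rank above genes with 1 UMI. The 10 smallest by this ranking were led by Npy, with 2 UMIs. Cobl, D130043K22Rik, Cdh12 and Dlk2 followed, with 1 UMI each and ratios between 0.015 and 0.017. Cdh12 is a neuronal cadherin.

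Few genes separated the library sets within the endothelial-marker nuclei. Of 2699 genes with at least 60 endothelial UMIs, 10 (0.371%) were higher in every set 1 library than in any of set 2 and 24 (0.889%) were lower. Of 195 list members among them, 3 were higher and 5 lower. How many genes would separate 5 libraries from 5 by chance was not tested. The genes named here are thus a description and not established differences. Ly6a (Sca-1), a surface protein of mouse endothelium, ran from 47.5 to 57.6 UMIs per 10000 in set 1 and from 32.2 to 42.6 in set 2, a ratio of 1.45. In the other nuclei its ratio between the sets was 2.14, at 0.516 and 0.242. Podxl, a sialomucin of the vessel lumen, ran from 24.0 to 30.3 and from 17.1 to 22.2, a ratio of 1.35. In the other nuclei the ratio of Podxl between the sets was 1.27, at 0.340 and 0.267. Tfrc was lower in set 1, at 1.75 to 2.89 against 2.95 to 4.41, as was Slc39a10 at 9.89 to 13.5 against 14.5 to 18.6. Car4, Egfl7 and Jun were also lower, and Ctnnd1 was higher.

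Viral transcripts were fewer in the endothelial-marker nuclei. They carried 4.17 UMIs of viral barcodes per nucleus (Poisson interval 3.98 to 4.37, median 2), against 15.9 in the other nuclei (median 5). Over libraries the mean was 1.77 at its lowest, 4.48 at the median and 7.34 at its highest, against 7.56, 16.6 and 19.4. The mean was lower in 10 of 10 libraries, the ranges did not overlap, and the ratio of the pooled means was 0.26. Per 1000 cellular UMIs the values were 2.53 and 18.6, a ratio of 0.14. This ratio was 0.40 for the 85 nuclei with under 3 mural UMIs and 0.49 for the 40 nuclei left when those 8 further marker genes excluded a nucleus. The means of the other classes were 7.09 in the mural class, 6.84 in astrocytes, 6.64 in microglia and 18.1 in excitatory nuclei. The cut for kept nuclei counted the column Vector, which had a Pearson correlation of 0.993 with the sum of the viral barcodes. Of the 32335 kept nuclei, 31896 would pass without it, all 438 endothelial-marker ones among them. The rest were thus kept among the other nuclei through viral UMIs. Comparisons of viral and GRE UMIs with the other nuclei therefore draw on values the cut used. How far this shifts the ratios is not given here.

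The viral mean of the endothelial-marker nuclei was also under that of barcodes too small to be counted as nuclei. Barcodes lifted over the cut by the column Vector are missing from this group, so this comparison too draws on values the cut used. The 15013 barcodes with at most 200 UMIs held 8.53 viral UMIs on average, so the endothelial mean was 0.49 times theirs and lower in 10 of 10 libraries. At least 1 viral UMI was seen in 74.2% of endothelial-marker nuclei (interval 69.8 to 78.2%), in 86.3% of the other nuclei and in 79.4% of the small barcodes, being below the small barcodes in 8 of 10 libraries. After thinning to 500 UMIs the share was 53.5% in the endothelial-marker nuclei and 80.9% in the others. Library 2-5 had the lowest share, at 38.5%, and was also lowest in the other nuclei and the small barcodes, at 66.3% and 46.5%. A few nuclei carried much of the signal: 15 nuclei with 20 or more viral UMIs held 26.7% of the 1827, and the highest had 67.

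**Figure D5:**
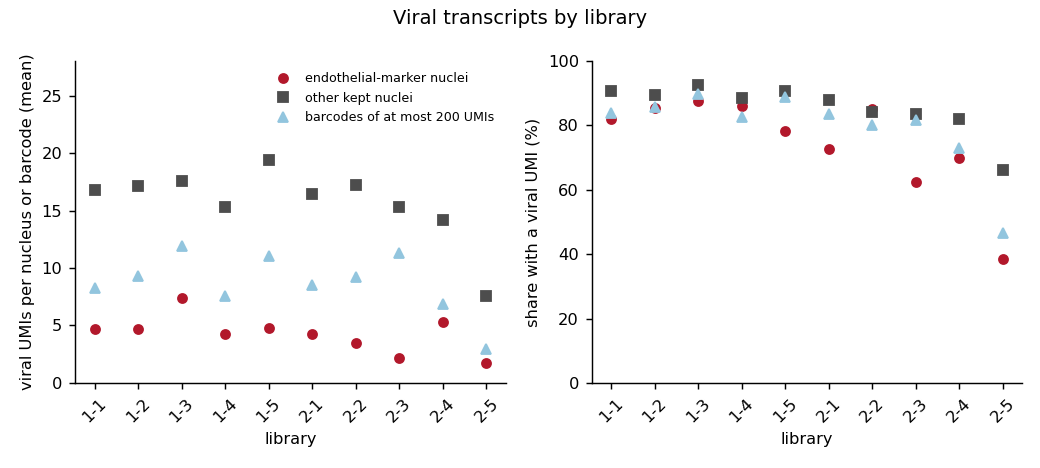
Mean viral UMIs per nucleus or barcode (left) and share with at least 1 viral UMI (right) in each of 10 libraries, for the endothelial-marker nuclei, the other kept nuclei and the barcodes of at most 200 UMIs. The endothelial mean is the lowest of the 3 in every library, and library 2-5 is lowest throughout.

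No GRE stood out in the endothelial-marker nuclei at this depth. Their 1809 UMIs over 287 GREs gave a median of 2 per GRE, and 95 GREs had none. With a pseudocount of 0.01 UMIs per nucleus, 4 of 186 GREs with at least 300 UMIs had a ratio to the other nuclei above 1, and the median was 0.35. GRE259 (chr2:83518527-83519006 in mm10) had the largest ratio, 2.52, but 17 of its 20 UMIs were in 1 nucleus and without library 2-4 the ratio was 0.67. GRE218 (1.27) had 23 of 25 UMIs in 1 nucleus, and all 6 of GRE176 (1.14) were in 1 nucleus. GRE56 and GRE33 followed at 1.03 and 0.97, with 23 of 45 and 10 of 11 UMIs in 1 nucleus. Across GREs the endothelial UMIs had a Pearson correlation of 0.86 both with those of the small barcodes and with those of the other nuclei, over 287 GREs that share the same injected pool.

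The 5 GREs named by the study as hits lay on both sides of the median of 0.35 for GREs with at least 300 UMIs. GRE12 had a ratio of 0.51, GRE22 0.46, GRE19 0.26, GRE44 0.21 and GRE80 0.17, on 5 to 22 UMIs each. Of the 11 UMIs of GRE12, 7 were in 1 nucleus. With 1 library left out, its ratio fell to 0.281 at the lowest and that of GRE22 to 0.345. Their place above the median thus rests on few nuclei. At the pseudocount of 0.01 the smallest ratios were those of GRE180 (0.16), GRE197 (0.15) and GRE271 (0.13). At a smaller pseudocount these GREs had 0.081, 0.065 and 0.086, so their order depends on that choice. Of the 287 GREs, 5 have as nearest gene in the deposited annotation a gene with an endothelial ratio of 20 or more. Over all tested genes, 245 of 12999 had such a ratio, 79 of them reaching the UMI minimum only through their endothelial UMIs. The same holds for Nostrin and Clec14a among the nearest genes named below. GRE22 (chr2:69084462-69084761) is listed with Nostrin, an endothelial adaptor with a ratio of 91.2. GRE44 (chr3:150792256-150792555) is listed with Adgrl4, under its older name. GRE99 and GRE16 are listed with Clec14a (ratios of 0.35 and 0.17 for the GREs) and GRE197 with Cav1. The listed distances to the gene start were -51189 bases for GRE22, -645477 for GRE44, -282066 for GRE99, -285649 for GRE16 and 31403 for GRE197. None of these 5 GREs had a ratio above 0.46.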

How the data were processed

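Nuclei of the single-nucleus sample were captured with inDrops and, per the study's methods, aligned and counted by the authors with the inDrops pipeline, with transcripts of the viral barcodes enriched by PCR. The genome build is GRCm38 per the labels. The deposited table holds UMI counts, not normalised, of 47348 barcodes over 25870 gene columns and 1164 viral barcode columns, of which 861 belong to the 287 GREs. A deposited GRE annotation gave coordinates and nearest genes. Its columns with the authors' own specificity of each GRE in the ATAC-Seq and in the viral screen were not used. The 6 ATAC-Seq samples were not used here.

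The members and the gene lists were chosen with earlier results of these data known. Counts were summed over nuclei and divided by all UMIs outside the viral columns and outside the column Vector, per 10000. Ratios of such levels carry exact conditional binomial 95% intervals, sums exact Poisson intervals and shares exact Clopper-Pearson intervals. With 1 sample no test between conditions was possible, so no p-value is given. Genes named outside the lists are the 20 with the largest and the 10 with the smallest ratios, leaving out genes used by the rule. In the ranking of the smallest, genes with 0 UMIs were taken to hold 3. The 26 lists hold 343 genes, of which 342 had a column, 3 of them under an older symbol. Some list members are not reported here. No doublet caller was run. Astrocyte, microglia and mural classes needed at least 3 UMIs of their markers, and the excitatory class at least 1 of Slc17a7, with no second class and no Gad1 or Gad2. Kept nuclei of the 10 libraries numbered 2457 to 3629 each, with a median depth of 598 to 859 UMIs in the other nuclei. Ratios of GREs used a pseudocount of 0.01 UMIs per nucleus. The scripts were tested on simulated data and ran in python 3.11.15 with numpy 2.4.6, scipy 1.17.1, pandas 2.3.3 and matplotlib 3.10.9. Alternatives were other marker sums, depths, exclusions, averaging, filters, pseudocounts for the GREs and each library left out.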

Additional observations from a re-analysis of the deposited data

Results flagged for a closer look

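Among 36 measures compared over the 10 libraries, 2 had a library far from the others, and chance gives about 1 in 20. The share of endothelial-marker nuclei with a viral UMI was 38.5% in library 2-5, and the next library was at 62.5%. The summed level of microglia and macrophage markers was 3.17 UMIs per 10000 in library 1-3, and the next library was at 1.16. The column named Vector held 3.92 UMIs per endothelial-marker nucleus and 14.2 per other nucleus. Its values enter no level or ratio, but it counted towards the cut of 200 UMIs. Per the study's methods all viral sequences shared one gene name in the mapping, and the column had a Pearson correlation of 0.993 with the sum of the viral barcodes over kept nuclei and was above it in 0 nuclei.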

How the results depend on the processing

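No paired analysis was possible because no result comes from a test over replicates, although both groups were present in each of the 10 libraries and were compared within them. The share of 1.35% ran from 1.31 to 1.41% with each library left out. It was 1.82% among nuclei of more than 500 UMIs, 0.124% when 8 further genes excluded a nucleus (0.125% with those nuclei in neither group, added after seeing the data) and 0.266% for nuclei with under 3 mural UMIs (also added). The ratio of viral UMIs per nucleus was 0.250 to 0.280 with a library left out, and 0.376 when no gene excluded a nucleus. This ratio was 0.295 with the 8 further genes (0.292 in neither group) and 0.304 with under 3 mural UMIs. Per 1000 cellular UMIs it was 0.129 to 0.144 with a library left out, 0.181 at a marker sum of 2, 0.186 with no exclusion, 0.486 with the 8 further genes (0.476 in neither group) and 0.395 with under 3 mural UMIs. The share with a viral UMI was 72.9 to 77.7% with a library left out and 53.5% after thinning.

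The count of higher genes was 2003 to 2052 with a library left out, 3287 with no filter on low counts, 222 with the 8 further genes (221 in neither group) and 627 with under 3 mural UMIs. The count of lower genes was 4414 to 4519, 14716, 342 (359) and 1246 in the same order. The 8 further genes left 40 nuclei and the mural limit 85, so fewer genes could reach the UMI minimum. With the 8 further genes the microglia and macrophage list turned to a ratio of 1.11 (1.09 in neither group) and the erythrocyte list to 0.263 (0.290). The receptor and adhesion list fell from 38.6 to 14.9 (29.1) and Adgrl4 from 251 to 16.0 (117). The mural list, some members of which are among the 8 genes, fell from 91.0 to 1.30 (4.33). Not all lists fell: the venous list rose from 1.68 to 2.29 (2.32). The cause of these changes was not tested. GRE259 reversed to 0.673 without library 2-4 and ranged up to 3.03 with other libraries left out. Of 576 alternatives over 24 lists, 62 moved by more than the standard deviation over libraries and 4 reversed. Of 718 over 30 named genes, 47 moved and 0 reversed. Of 156 over 13 GREs, 6 moved and 1 reversed. The GREs had a median of 2 endothelial UMIs each, which limits their ratios.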
